A study of Mus musculus with 18 samples.

Results

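The aminoacyl-tRNA synthetase genes were followed through polysome profiles of wild-type (WT) and Dgcr8 knockout (KO) mouse embryonic stem cells (ESCs). They were chosen by name, and comprise 20 genes for cytosolic enzymes and 16 genes for mitochondrial enzymes, whose symbols end in 2. All 36 were among the 51467 genes of the count table, and all 36 passed the filter on low counts that left 12851 genes for testing. WT cells were the V6.5 line, and the KO cells were a single line lacking Dgcr8, a gene needed to make most microRNAs. Each genotype was therefore represented by 1 line, so that loss of Dgcr8 and any other difference between the lines cannot be told apart. Both were grown as undifferentiated ESCs with serum, LIF and the 2i inhibitors PD0325901 and CHIR99021, and received 100 ug/ml cycloheximide for 2 minutes to hold ribosomes on their messages. Lysates were spun through sucrose gradients, and RNA was taken from the monosome, from the low polysome (2 to 4 ribosomes on a message) and from the high polysome (4 or more). For each genotype 3 gradients were run, written here as 3 replicates, which gave 18 libraries in 6 groups of 3.

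Aminoacyl-tRNA synthetases join each amino acid to its tRNA and so supply the ribosome. The cytosolic and mitochondrial enzymes are mostly encoded by separate nuclear genes, although Gars and Kars each serve both compartments. Several cytosolic enzymes sit together in the multi-synthetase complex, on the scaffold proteins AIMP1, AIMP2 and EEF1E1. When amino acids run short or the endoplasmic reticulum is stressed, the transcription factor ATF4 is known to raise many of the cytosolic synthetase genes together with genes that import and make amino acids, through the C/EBP-ATF response element.

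Values are CPM (a library's reads for the gene relative to all its counted reads, after TMM scaling), which puts libraries of different depth on 1 scale. They describe the share of a fraction's mRNA, not molecules per cell. The libraries held 1151649 to 4984833 counted reads, and the monosome libraries of WT were the shallowest. Replicates of a group correlated with Spearman's rho of 0.969 to 0.987 across genes. Dgcr8 itself fell in the KO libraries by 0.56 in the monosome, 0.45 in the low polysome and 1.01 in the high polysome on the log2 scale, and 38 to 183 reads a library remained. Which part of the gene was removed is not given in the sources used here, so 3′ end reads do not check the deletion. The 10 markers of naive ESCs summed to 2760 to 4820 CPM in WT and 3290 to 4620 CPM in KO, with single markers changed both ways (3 lower and 3 higher by the adjusted p in the monosome, 3 and 4 in the low polysome, 4 and 1 in the high polysome), whereas primitive endoderm markers stayed at 11.5 CPM or less and fibroblast markers at 21.5 CPM or less. The epiblast marker Fgf5 had no more than 3 reads in any library. The 5 epiblast-like markers summed to 100.0 to 154 CPM in WT and 87.7 to 130 CPM in KO. Similar sums hid large changes of single markers in both directions. On the log2 scale the 4 epiblast-like markers tested changed by -2.83 to 2.05 in the monosome. The naive markers changed by -3.54 to 1.38 in the high polysome.

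To ask how much synthetase mRNA each fraction carried, the levels of the members were summed in each library. The cytosolic genes took a smaller share in KO, and most clearly in the monosome. There they summed to 3555, 3516 and 3840 CPM in the WT libraries and to 2025, 2069 and 2035 CPM in the KO libraries. In the low polysome the sums were 2616, 2729 and 2926 CPM in WT against 2035, 1589 and 1826 CPM in KO. In the high polysome they were 4508, 4306 and 4922 CPM against 4054, 3504 and 4302 CPM. The 3 WT and the 3 KO values did not overlap in any fraction, but the gap was narrow in the high polysome. The mitochondrial genes behaved differently. They summed to 476.5 to 527.7 CPM in WT and 435.3 to 483.1 CPM in KO monosomes, to 404.6 to 442.2 against 418.5 to 453.3 CPM in the low polysome, and to 558.0 to 612.4 against 600.8 to 688.4 CPM in the high polysome, and the genotypes overlapped in all 3 fractions.

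**Figure D1:**
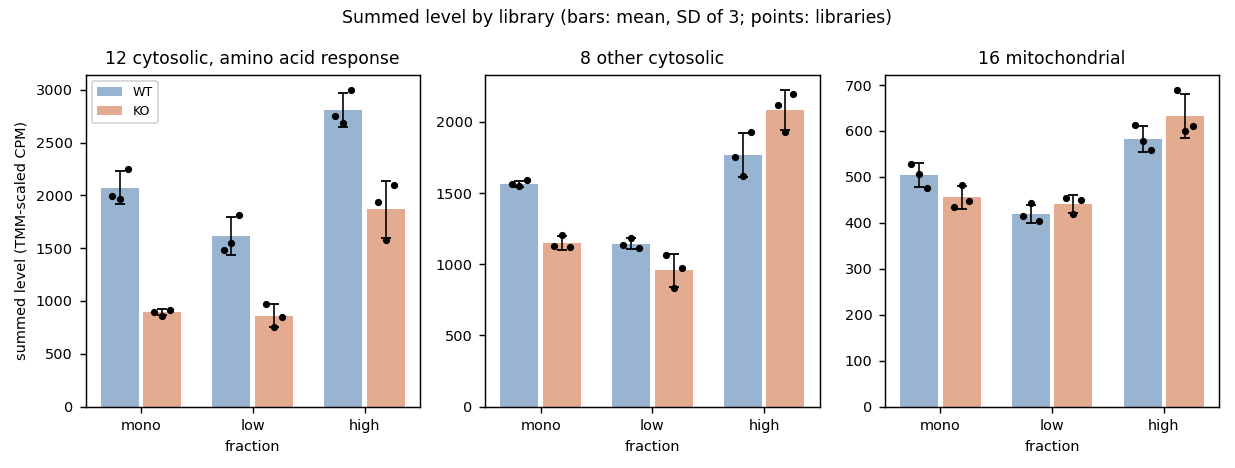
Summed level (TMM-scaled CPM, vertical axis) of 12 cytosolic synthetase genes known to respond to amino acid shortage, the 8 other cytosolic genes and the 16 mitochondrial genes in the monosome, low polysome and high polysome. Bars are means with the SD of 3 libraries and points are libraries. The 12 response genes sit at 861.7 to 916.3 CPM in the KO monosome against 1968 to 2250 CPM in WT.

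Gene by gene, KO was compared with WT within each fraction, and a gene was called changed at an adjusted p under 0.05 together with more than 2-fold change. In the monosome, 9 of the 20 cytosolic genes were called lower and 0 higher, where 9.63% of all genes tested were called lower and 8.43% higher. With the adjusted p alone, 16 of 20 were lower and 0 higher, against 19.9% and 17.5% of all genes. The median change of the 20 was -0.81 on the log2 scale, and that of all genes was -0.05. In the low polysome, 5 of 20 were called lower and 0 higher (13.6% and 11.4% of all genes), 13 were lower and 0 higher by the adjusted p alone (26.2% and 26.1%), and the median was -0.66 against 0.0042. In the high polysome, 2 were called lower, Nars and Yars, and 1 higher, Qars (17.9% and 15.1% of all genes), and by the adjusted p alone 9 were lower and 2 higher (31.6% and 29.1%). The high polysome median was -0.27 against -0.08 for all genes, a smaller gap than in the other fractions. Set beside protein-coding genes of like coding sequence length, the median difference in the high polysome was -0.56, with 17 of 20 genes below. The 3 KO libraries lay below the 3 WT libraries for 16, 14 and 8 of the cytosolic genes in the monosome, low and high polysome (25.7%, 28.4% and 33.7% of all genes) and above them for 0, 0 and 2 (23.5%, 28.6% and 29.9%).

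Of the 16 mitochondrial genes, 1 was called in each fraction, each time lower and each time a different gene, where 9.63%, 13.6% and 17.9% of all genes were called lower. These were Mars2 in the monosome, Ears2 in the low polysome and Hars2 in the high polysome. By the adjusted p alone, 0 were higher and 3 lower in the monosome (17.5% and 19.9% of all genes), 3 higher and 2 lower in the low polysome (26.1% and 26.2%), and 4 higher and 2 lower in the high polysome (29.1% and 31.6%). Their medians were -0.06, 0.17 and 0.17, against -0.05, 0.0042 and -0.08 for all genes. No test was made of the difference between the cytosolic and the mitochondrial class.

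**Figure D2:**
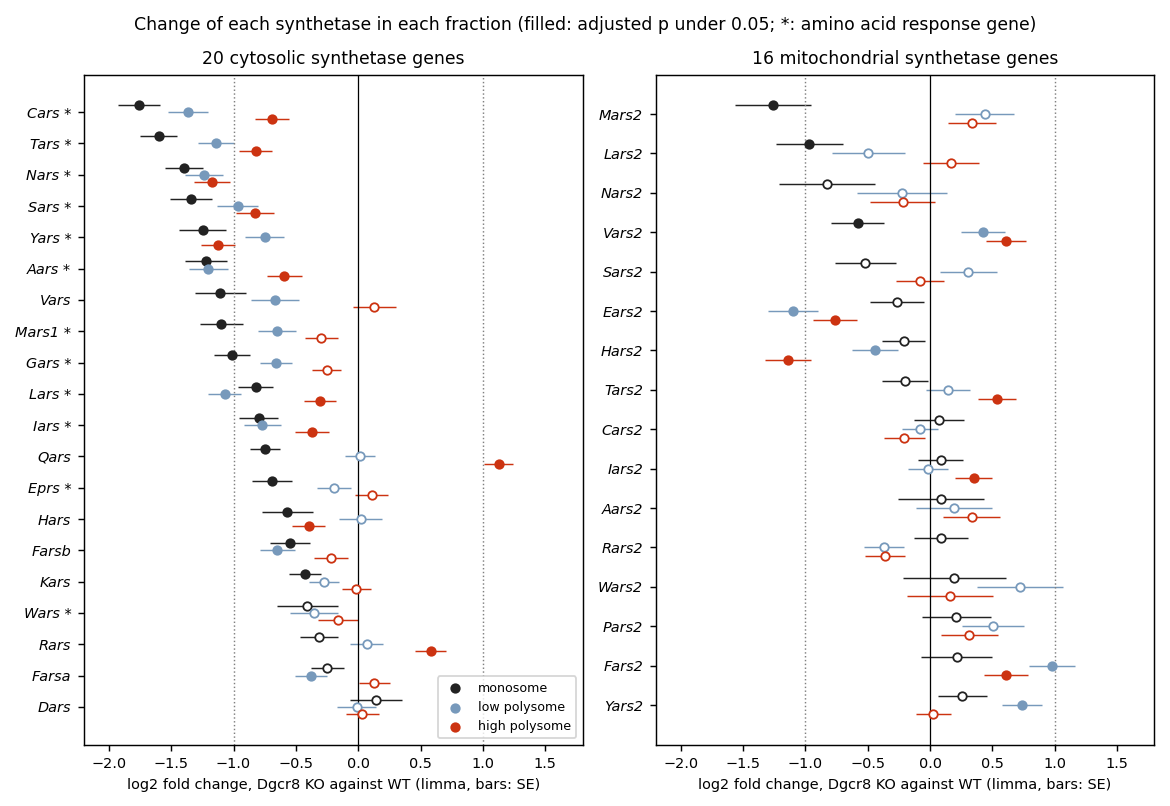
Log2 fold change of KO against WT (horizontal axis, limma, bars are SE) for each of the 20 cytosolic and 16 mitochondrial genes, in the monosome, low polysome and high polysome. Filled points have an adjusted p under 0.05, dotted lines mark 2-fold change and asterisks mark the amino acid response genes. Of the cytosolic genes, 19 of 20 lie left of 0 in the monosome, and Qars lies at 1.13 in the high polysome.

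The 6 cytosolic genes that changed most over the fractions charge cysteine, asparagine, threonine, tyrosine, alanine and serine. Cars, the cysteinyl-tRNA synthetase, was at 125, 121 and 145 CPM in the WT monosome and at 38.4, 37.7 and 38.4 CPM in the KO monosome. In the low polysome it was at 65.6, 76.2 and 87.0 CPM in WT and 26.7, 27.2 and 34.2 CPM in KO, and in the high polysome at 133, 114 and 124 against 70.8, 62.8 and 97.7 CPM. All KO libraries lay below all WT libraries in each fraction, with log2 changes of -1.76 ± 0.17 (SE, limma adjusted p = 5.73e-11), -1.37 ± 0.16 (2.69e-09) and -0.69 ± 0.14 (4.26e-05). The drop was thus deepest in the monosome and about 1 log2 unit shallower in the high polysome.

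Tars, which charges threonine, had the same form. Its WT monosome values were 325, 350 and 371 CPM and its KO values 125, 122 and 99.1 CPM. In the low polysome they were 226, 215 and 258 against 124, 83.9 and 112 CPM, and in the high polysome 428, 441 and 491 against 319, 203 and 260 CPM. The groups did not overlap in any fraction, and the log2 changes were -1.60 ± 0.15, -1.14 ± 0.14 and -0.82 ± 0.13 (limma adjusted p = 1.8e-11, 7.8e-09 and 1.23e-06). Without KO replicate 2 the low polysome change was -0.98, just short of 2-fold.

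Nars, for asparagine, and Yars, for tyrosine, were the cytosolic genes called lower in the high polysome. Nars was at 395, 436 and 436 CPM in WT and 160, 144 and 177 CPM in KO monosomes, at 226, 227 and 320 against 141, 80.4 and 109 CPM in the low polysome, and at 516, 522 and 617 against 266, 199 and 275 CPM in the high polysome. Its log2 changes were -1.40 ± 0.16, -1.24 ± 0.15 and -1.17 ± 0.14 (limma adjusted p = 1.63e-09, 7.27e-09 and 4.12e-09), so its level fell in all 3 fractions. Yars was at 69.6, 61.3 and 73.4 CPM in WT and 38.9, 23.7 and 26.6 CPM in KO monosomes. In the low polysome it was at 48.7, 55.2 and 56.9 against 40.6, 27.9 and 28.6 CPM, and in the high polysome at 130, 108 and 128 against 57.2, 54.4 and 55.4 CPM. The KO libraries again lay below the WT libraries throughout, and the log2 changes were -1.25 ± 0.19, -0.75 ± 0.16 and -1.13 ± 0.14 (limma adjusted p = 1e-06, 0.000118 and 4.68e-09).

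Aars, for alanine, and Sars, for serine, completed the group. Aars was at 135, 125 and 165 CPM in WT and 67.8, 58.2 and 55.6 CPM in KO monosomes, at 115, 136 and 122 against 59.3, 48.7 and 53.9 CPM in the low polysome, and at 164, 152 and 175 against 115, 78.9 and 139 CPM in the high polysome. It changed by -1.22 ± 0.17, -1.20 ± 0.15 and -0.59 ± 0.14 on the log2 scale (limma adjusted p = 1.61e-07, 1.39e-08 and 0.000459). Sars was at 231, 205 and 306 CPM in WT and 93.4, 87.8 and 107 CPM in KO monosomes, at 145, 112 and 175 against 91.9, 54.2 and 75.4 CPM in the low polysome, and at 290.6, 268 and 347 against 180, 150 and 180 CPM in the high polysome. Its changes were -1.34 ± 0.17, -0.97 ± 0.16 and -0.83 ± 0.15 (limma adjusted p = 2.56e-08, 3.59e-06 and 9.1e-06). Neither gene had a KO library within the WT range in any fraction.

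**Figure D3:**
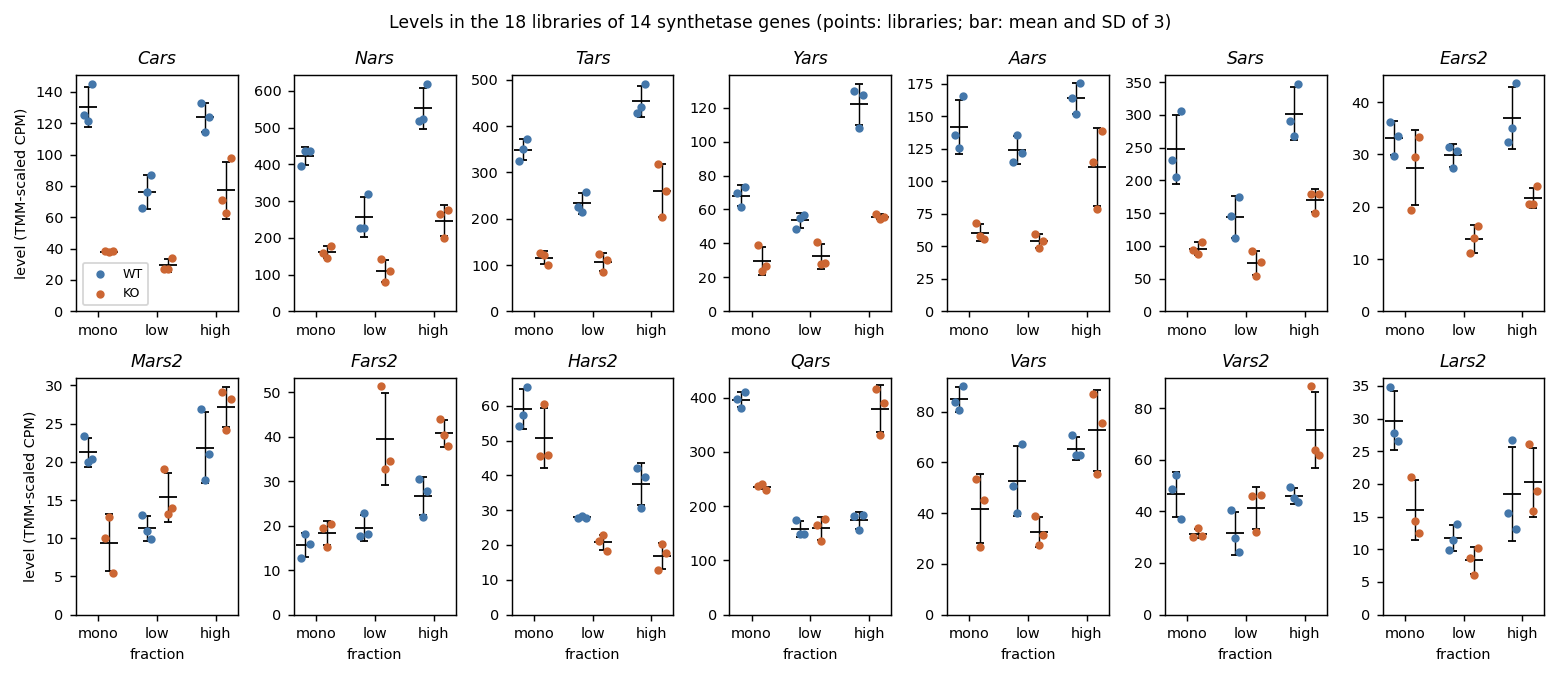
Level (TMM-scaled CPM, vertical axis, from 0) of 14 synthetase genes in the monosome, low polysome and high polysome of WT and KO. Points are libraries, and the black marks are the mean and SD of 3. Cars, Nars, Tars, Yars, Aars and Sars are lower in KO in every fraction, and Qars is lower in the KO monosome and higher in the KO high polysome.

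The cytosolic genes were next divided into the 12 that are commonly described as ATF4 or amino acid response targets (Aars, Cars, Eprs, Gars, Iars, Lars, Mars1, Nars, Sars, Tars, Wars and Yars) and the other 8 (Dars, Farsa, Farsb, Hars, Kars, Qars, Rars and Vars). The 12 had median log2 changes of -1.16, -0.87 and -0.48 in the monosome, low and high polysome, and 11, 10 and 8 of them were lower by the adjusted p (19.9%, 26.2% and 31.6% of all genes), with 0 higher in each fraction (17.5%, 26.1% and 29.1%). Wars, for tryptophan, was the exception in the monosome, with a change of -0.41 ± 0.24. The other 8 had medians of -0.49, -0.14 and 0.08, with 5, 3 and 1 lower and 0, 0 and 2 higher. In the monosome the 12 summed to 1968 to 2250 CPM in WT and 861.7 to 916.3 CPM in KO, while the 8 summed to 1549 to 1590 and 1118 to 1208 CPM. In the high polysome the 12 were at 2687 to 2994 CPM in WT and 1573 to 2102 CPM in KO, and the 8 were at 1619 to 1927 and 1931 to 2200 CPM. The 12 genes thus had lower sums in KO in all fractions. The sum of the 8 was lower in the KO monosome and low polysome (834.7 to 1063 CPM in KO against 1111 to 1185 CPM in WT). In the high polysome it was just above the WT range. There the mean of Qars rose from 173.6 to 379.6 CPM and that of Rars from 217.9 to 326.2 CPM. These were the 2 genes of the 8 higher by the adjusted p, and Hars was lower. No test was made of the difference between these lists.

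Among the remaining response genes, Gars (glycine) and Mars1 (methionine) were called lower in the monosome, with log2 changes of -1.01 ± 0.14 and -1.10 ± 0.17, and Lars (leucine) was called in the low polysome, with -1.07 ± 0.13. Iars, for isoleucine, was lower by the adjusted p in all fractions at -0.80, -0.77 and -0.37. Eprs, which charges both glutamate and proline, was lower in the monosome at -0.69 ± 0.16 and did not pass in the polysomes at -0.20 and 0.11. Of the 8 others, Vars (valine) was called in the monosome at -1.10 ± 0.21, although without KO replicate 2 its change was -0.80. Farsb, a subunit of the phenylalanine enzyme, was lower in the monosome and low polysome at -0.55 and -0.65, and its partner subunit gene Farsa was lower in the low polysome alone by the adjusted p, at -0.38 ± 0.13. Kars (lysine) was lower in the monosome at -0.43 ± 0.13. Hars (histidine) was lower in the monosome and high polysome at -0.57 and -0.40, and Rars (arginine) was higher in the high polysome at 0.58 ± 0.13. Dars, for aspartate, had changes of 0.14, -0.01 and 0.03 and passed in none.

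The 8 synthetases of the multi-synthetase complex (Dars, Eprs, Iars, Kars, Lars, Mars1, Qars and Rars) had median changes of -0.72, -0.23 and 0.01 in the 3 fractions, and 6, 3 and 2 were lower by the adjusted p (19.9%, 26.2% and 31.6% of all genes) and 0, 0 and 2 higher (17.5%, 26.1% and 29.1%). The 12 cytosolic synthetases outside it had medians of -1.16, -0.71 and -0.49, with 10, 10 and 7 lower and 0 higher in each. Of the scaffold genes, Aimp1 was lower by the adjusted p in the monosome at -0.98 ± 0.14 and the high polysome at -0.51 ± 0.13 and had a change of -0.16 in the low polysome. Aimp2 had changes of -0.42, 0.03 and 0.21, none of which passed. Eef1e1 was lower in the monosome, low and high polysome at -0.84 ± 0.22, -1.31 ± 0.19 and -1.96 ± 0.20. The drop grew from the lightest to the heaviest fraction, the opposite order to that of Cars and Tars. Such orders varied with coding sequence length over all protein-coding genes. The decile with the shortest sequences had medians of -0.13, -0.85 and -1.13, and the decile of Cars had 0.007, 0.18 and 0.48. Eef1e1 was not compared with genes of its length.

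To place the synthetases within the amino acid response, 33 other genes of the pathway were listed, from the kinase Eif2ak4 to transporters, serine and proline synthesis enzymes and stress regulators, of which 32 were tested. By the adjusted p, 25 were lower in the monosome, 25 in the low polysome and 25 in the high polysome (19.9%, 26.2% and 31.6% of all genes), and 0, 0 and 2 were higher (17.5%, 26.1% and 29.1%). With the fold threshold 20, 20 and 17 were called lower (9.63%, 13.6% and 17.9%), and the medians were -1.30, -1.58 and -1.20. Atf4, the transcription factor at the centre of the response, changed by -1.06 ± 0.11, -2.74 ± 0.11 and -3.25 ± 0.12 (SE) on the log2 scale in the monosome, low and high polysome. Its mRNA carries upstream reading frames that are known to govern its translation, and its ratio of high polysome to monosome changed by -2.18 ± 0.16 in KO relative to WT (limma adjusted p = 1.9e-12). Asns, the asparagine synthetase and a standard readout of the response, changed by -1.26, -1.09 and -0.84, and Chac1, a glutathione-degrading enzyme, by -6.52, -4.83 and -5.27. Slc7a3, a transporter of basic amino acids, and Sesn2, a leucine sensor, were the 2 genes higher in the high polysome, at 0.95 and 0.42, and were named after their values were seen.

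Promoter sequences were searched for the core of the C/EBP-ATF response element, TGATGNAA, and for the E-box CACGTG, on both strands, from 250 bases before to 50 bases after the start site. RefSeq promoters (GRCm38.p6) were matched for 13 of the 20 cytosolic and 14 of the 16 mitochondrial genes. The core was present in promoters of 5 of 13 cytosolic genes (38.5%) and 0 of 14 mitochondrial genes (0.0%). It was present for 9 of 28 pathway genes (32.1%) and for 255 of 9621 genes tested that had a promoter (2.65%). These are shares of genes, whereas counted by window the share in all 32851 windows of that length was 3.97%. The 5 cytosolic genes were Aars, Gars, Iars, Tars and Yars. A match in each is shown within a window of 30 bases, with the core in capitals and written 5′ to 3′ on the strand of the motif, beside the Asns and Chac1 promoters for comparison.
Aars (chr8:111033840-111033869, minus strand): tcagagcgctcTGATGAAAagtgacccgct
Gars (chr6:55037960-55037989, minus strand): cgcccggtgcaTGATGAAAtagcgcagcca
Iars (chr13:49682126-49682155, minus strand): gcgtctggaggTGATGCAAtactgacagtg
Tars (chr15:11399655-11399684, plus strand): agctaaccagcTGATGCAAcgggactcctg
Yars (chr4:129189895-129189924, plus strand): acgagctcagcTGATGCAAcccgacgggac
Asns (chr6:7693214-7693243, minus strand): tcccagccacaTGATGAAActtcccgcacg
Chac1 (chr2:119351038-119351067, minus strand): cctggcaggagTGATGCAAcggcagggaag
The E-box was present in promoters of 4 of 13 cytosolic genes (30.8%, Aars, Farsb, Iars and Tars). It was present for 1 of 14 mitochondrial genes (7.14%, Ears2) and for 12.1% of genes tested that had a promoter. Aars, Iars and Tars therefore held both motifs. A match describes the letters of the window, and binding was not measured. The promoter of Sars held neither motif. Cars, Hars, Lars, Nars, Rars, Vars, Wars, Hars2 and Pars2 had no entry in the promoter table.

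Among the mitochondrial genes, those that changed most were Ears2, Mars2, Fars2 and Hars2, and they did not move together. Ears2, the glutamyl-tRNA synthetase of mitochondria, was at 31.4, 27.3 and 30.7 CPM in WT and 11.1, 14.1 and 16.3 CPM in KO in the low polysome, and at 32.4, 35.0 and 43.6 against 20.5, 20.5 and 23.9 CPM in the high polysome. In the monosome its values of 36.2, 29.7 and 33.6 in WT and 19.5, 29.5 and 33.3 CPM in KO overlapped. Its log2 changes in the monosome, low and high polysome were -0.27 ± 0.21, -1.10 ± 0.20 and -0.76 ± 0.18 (limma adjusted p = 0.347, 1.26e-05 and 0.000318), and without KO replicate 1 the low polysome change was -0.95.

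Hars2 was lower in the heavier fractions. It was at 42.1, 30.6 and 39.5 CPM in WT and 12.9, 20.2 and 17.7 CPM in KO in the high polysome, at 27.9, 28.5 and 27.7 against 21.2, 22.7 and 18.4 CPM in the low polysome, and at 54.2, 57.4 and 65.4 against 45.6, 60.6 and 45.8 CPM in the monosome, where the genotypes overlapped. The log2 change in the high polysome was -1.14 ± 0.19 (limma adjusted p = 1.53e-06), or -0.98 without KO replicate 1. Fars2, for phenylalanine, moved the other way. Its low polysome values were 17.6, 22.9 and 18.1 CPM in WT and 51.3, 32.7 and 34.4 CPM in KO, and its high polysome values were 30.4, 21.98 and 27.7 against 44.0, 40.4 and 37.9 CPM. The KO libraries were above the WT libraries in both polysome fractions, by 0.98 ± 0.18 and 0.61 ± 0.18 on the log2 scale (limma adjusted p = 2.31e-05 and 0.00285), while in the monosome the values of 12.7, 18.1 and 15.9 against 19.5, 15.1 and 20.4 CPM overlapped.

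Of the other mitochondrial genes, Yars2 was higher in the low polysome at 0.74 ± 0.16, Tars2 and Iars2 were higher in the high polysome at 0.54 ± 0.15 and 0.35 ± 0.15, and Vars2 was higher in both at 0.42 ± 0.18 and 0.61 ± 0.16. Lars2 and Vars2 were lower in the monosome at -0.97 ± 0.27 and -0.58 ± 0.21. Aars2, Cars2, Nars2, Pars2, Rars2, Sars2 and Wars2 passed the adjusted p in no fraction, with changes between -0.83 for Nars2 in the monosome and 0.72 for Wars2 in the low polysome. Wars2 and Nars2 were thinly covered, with as few as 6 and 10 reads in a library, and none of their changes between the genotypes passed the adjusted p at this depth.

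Translation level was measured as the log2 ratio of high polysome to monosome. This takes out changes in the amount of mRNA common to both fractions. Tests and medians compared group means without pairing fractions by gradient, whereas values listed for single gradients are ratios within a gradient. In WT, 12 of the 20 cytosolic genes were higher in the high polysome than in the monosome by the adjusted p and 1, Qars, was lower (26% and 28% of all genes), and 3 were called higher (10.7% of all genes) and 1 lower (19.3%). In KO, 20 of 20 were higher by the adjusted p, where 32.2% of all genes were higher and 35.5% lower, and 9 were called (17.5%). The medians were 0.43 in WT and 0.98 in KO, while those of all genes were -0.01 and -0.07. The synthetases are long, and these values were not compared with genes of like coding sequence length. They therefore do not single out the synthetases among long genes. The mitochondrial genes had medians of 0.06 in WT and 0.39 in KO, with 0 called in WT, and 4 called higher and 1 lower (Hars2; 25.5% of all genes were called lower) in KO.

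The change in translation level, KO minus WT, was then tested as the interaction of genotype and fraction. It had a median of 0.51 over the cytosolic genes and 0.26 over the mitochondrial genes, against 0.0073 for all genes tested. Of the cytosolic genes, 10 were higher by the adjusted p and 0 lower (13% and 15.2% of all genes), and 3 were called higher and 0 lower, Qars, Vars and Cars (6.29% and 8.81%). Of the mitochondrial genes, 4 were higher and 1 lower by the adjusted p, and 3 were called higher, Mars2, Vars2 and Lars2. The 3 KO gradients lay above the 3 WT gradients for 12 cytosolic and 5 mitochondrial genes, where this held for 20.3% of all genes, and below them for 1 gene, Hars2 (21.4%). These medians depended on how the libraries were scaled. When libraries were scaled by their total counts alone, the median change of all genes moved by -0.33, the cytosolic median became 0.19 with 15 of 20 genes above 0, and the mitochondrial median became -0.07 with 7 of 16 above 0. By the adjusted p, 4 cytosolic genes were then higher and 0 lower, and 2 mitochondrial genes were higher and 3 lower. Lars2, at 0.81, no longer passed (limma adjusted p = 0.0815), and Hars2, at -1.26, passed the fold threshold as well. Relative to the median of all genes, the cytosolic median was 0.51 and the mitochondrial median was 0.25 under both scalings. Scaling moves all genes of a library alike, so these differences could hardly change and do not check the scaling.

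**Figure D4:**
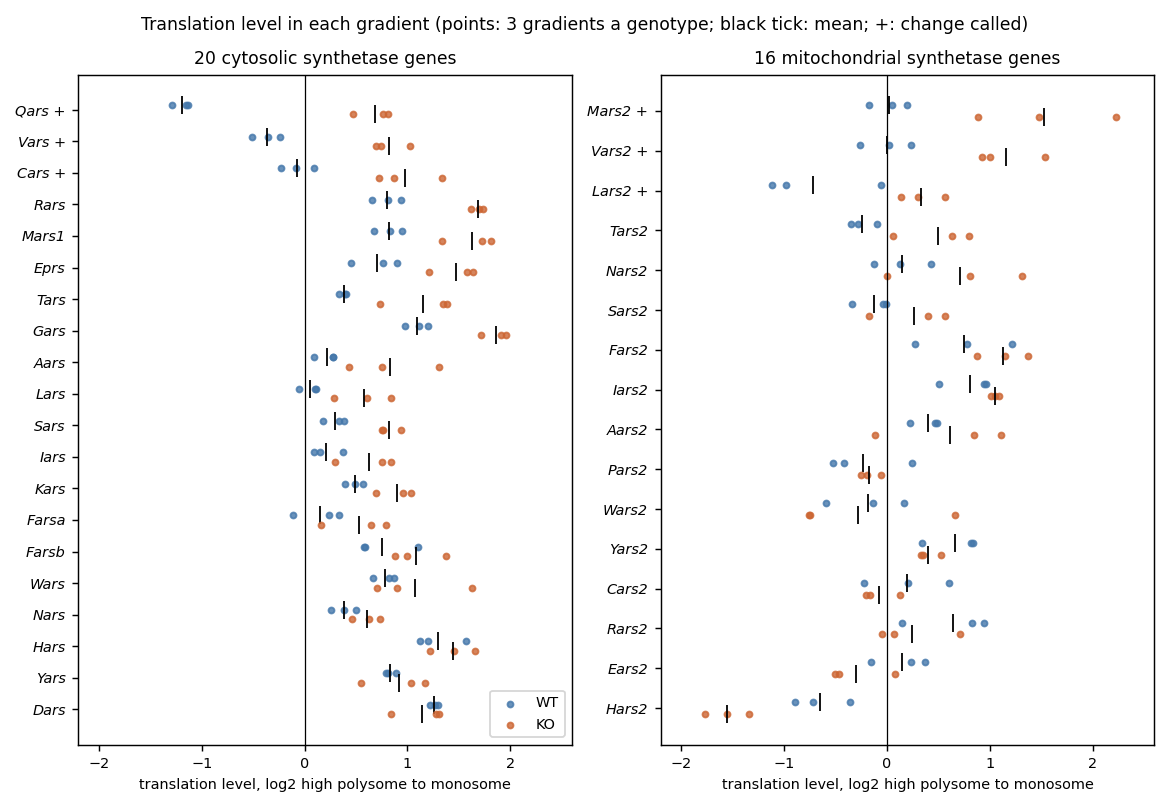
Translation level (log2 ratio of high polysome to monosome CPM, horizontal axis) of each cytosolic and mitochondrial synthetase gene in the 3 gradients of WT and of KO. Black ticks are means, genes are ordered by the change between genotypes, and a plus marks the 6 called genes. Qars moves from -1.19 in WT to 0.68 in KO, and Hars2 from -0.66 to -1.55.

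Qars, the glutaminyl-tRNA synthetase, had the largest change of the 36 in this fit. It was at 398, 381 and 410 CPM in the WT monosome and 237, 240 and 230 CPM in KO, at 175, 149 and 149 against 166, 136 and 176 CPM in the low polysome, and at 181, 156 and 184 against 416, 332 and 391 CPM in the high polysome. The KO libraries lay below WT in the monosome, within the WT range or close to it in the low polysome, and above WT in the high polysome. Its translation level was -1.13, -1.29 and -1.15 in the WT gradients and 0.81, 0.47 and 0.76 in the KO gradients. The change was 1.87 ± 0.17 on the log2 scale (limma adjusted p = 9.82e-11). Qars was the cytosolic gene with the lowest translation level in WT, and in KO it stood among the others, of which the lowest, Farsa, was at 0.53.

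Vars was at 83.7, 80.7 and 90.2 CPM in WT and 53.4, 26.8 and 45.0 CPM in KO monosomes and at 70.6, 62.7 and 63.1 against 87.0, 55.3 and 75.6 CPM in the high polysome. In the low polysome it was at 50.8, 39.9 and 67.1 against 38.7, 27.2 and 31.5 CPM. Its translation level was -0.24, -0.36 and -0.51 in WT and 0.70, 1.03 and 0.74 in KO, a change of 1.23 ± 0.27 (limma adjusted p = 0.000545), with no overlap between the genotypes. For Cars the ratios were 0.09, -0.09 and -0.23 in WT and 0.87, 0.73 and 1.33 in KO, and the change was 1.07 ± 0.22 (limma adjusted p = 0.000247). The call for Cars sat at the fold threshold, since its change was 0.999 without WT replicate 3 and 0.88 without KO replicate 3, with adjusted p under 0.05 in both. Rars, Mars1, Eprs, Tars, Gars, Aars and Lars were the other cytosolic genes that passed the adjusted p, with changes from 0.52 for Lars to 0.89 for Rars. Nars, Yars and Dars, at 0.23, 0.12 and -0.11, did not pass. The translation level changes of Nars and Yars turned sign with total count scaling, to -0.10 and -0.21.

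Of the mitochondrial genes, Mars2, the methionyl-tRNA synthetase, was at 23.4, 20.01 and 20.3 CPM in WT and 10.01, 12.8 and 5.48 CPM in KO monosomes, from 14 to 35 reads a library. It was at 13.05, 10.9 and 9.93 against 19.1, 13.1 and 13.9 CPM in the low polysome and at 26.9, 17.7 and 21.02 against 29.1, 24.2 and 28.3 CPM in the high polysome. The monosome values fell, by 1.26 ± 0.30 on the log2 scale (limma adjusted p = 0.000988), or by 0.88 without KO replicate 3, while the polysome changes of 0.44 and 0.34 did not pass. Its translation level was 0.19, -0.17 and 0.05 in WT and 1.48, 0.88 and 2.22 in KO, a change of 1.60 ± 0.36 (limma adjusted p = 0.000678).

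Vars2 was at 48.9, 54.2 and 37.1 CPM in WT and 30.02, 33.4 and 30.6 CPM in KO monosomes, at 40.5, 29.6 and 24.4 against 45.8, 32.0 and 46.2 CPM in the low polysome, and at 49.5, 45.0 and 43.6 against 88.6, 64.0 and 62.1 CPM in the high polysome. Its translation level rose from 0.02, -0.26 and 0.23 in WT to 1.54, 0.92 and 1.005 in KO, by 1.19 ± 0.27 (limma adjusted p = 0.000746). Both valine enzymes, the cytosolic Vars and the mitochondrial Vars2, were therefore among the 6 called genes. Lars2 was at 34.8, 27.7 and 26.5 against 21.1, 14.4 and 12.5 CPM in the monosome, 9.87, 11.4 and 13.8 against 8.61, 6.09 and 10.2 CPM in the low polysome, and 15.6, 26.7 and 13.1 against 26.1, 15.8 and 18.8 CPM in the high polysome. Its change of 1.14 ± 0.35 (limma adjusted p = 0.0129) depended on single gradients, as the adjusted p was 0.097 without WT replicate 1, 0.0654 without WT replicate 3 and 0.0637 without KO replicate 3. Tars2 was higher by the adjusted p at 0.74 ± 0.24, and Hars2 was lower at -0.93 ± 0.25 (limma adjusted p = 0.00476), from -0.36, -0.89 and -0.72 in WT to -1.77, -1.55 and -1.34 in KO. Hars2 was the synthetase gene with the lowest translation level in KO.

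The ratios between neighbouring fractions showed where along the gradient these shifts lay. For the low polysome to monosome ratio, 2 of the 36 genes were called, both higher in KO, Mars2 at 1.70 ± 0.38 and Vars2 at 1.005 ± 0.28 (1.23% of all genes were called higher and 3.81% lower), and Vars2 sat on the fold threshold. For the high to low polysome ratio, 1 was called, Qars at 1.11 ± 0.17 (2.29% of all genes were called higher and 2.89% lower). Qars also passed the adjusted p between monosome and low polysome at 0.76 ± 0.17, so its shift was spread over the gradient, whereas Mars2 had a high to low polysome change of -0.10 ± 0.30.

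Change in translation level varied with the length of the coding sequence (CDS) over all genes, and the synthetases are long proteins. The cytosolic genes had a median CDS of 2073 bases (1443 to 4536) and the mitochondrial genes 1612 bases (1080 to 3180). Spearman's rho between CDS length and change in translation level was 0.717 across the 20 cytosolic genes, 0.409 across the 16 mitochondrial genes and 0.558 across 11763 protein-coding genes, all measured in the same libraries, and genes are not independent replicates. Each member was therefore set beside the median of the protein-coding genes in its CDS length decile. On that footing the cytosolic median change in translation level was 0.19, with 16 of 20 genes above their decile, in place of 0.51. The mitochondrial median was 0.06, with 8 of 16 above. In contrast, the lower cytosolic levels in KO were not reduced by this comparison. The median differences from the decile were -0.83 in the monosome, -0.81 in the low polysome and -0.56 in the high polysome, with 19, 20 and 17 of the 20 genes below it.

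**Figure D5:**
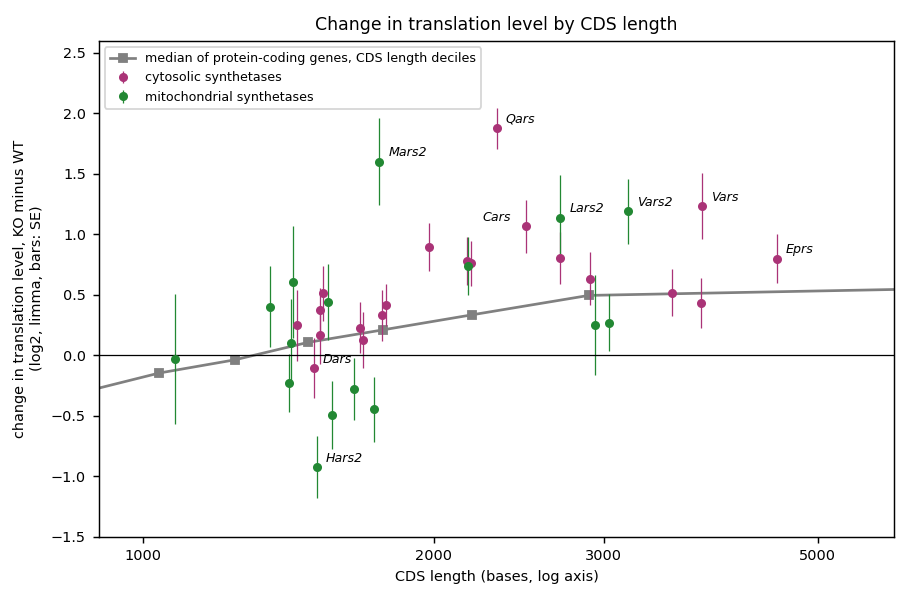
Change in translation level, KO minus WT (log2, limma, bars are SE), against CDS length in bases on a log axis, for 20 cytosolic and 16 mitochondrial synthetase genes. Grey squares are medians of protein-coding genes in deciles of CDS length, placed at the geometric middle of each decile. Qars, Mars2, Vars, Vars2, Lars2 and Cars lie above the grey line, and Hars2 lies below it.

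Dgcr8 KO cells lack the ESCC microRNAs, which make up much of the microRNA of ESCs. The 3′ UTRs of the members were therefore searched for sites of the seed of miR-294-3p and miR-302b-3p. Bases 2 to 8 differ in miR-290a-3p, miR-291b-3p and miR-302c-3p of the family, and sites for those bases were not searched. Mature sequences of 2 members of the family are shown with bases 2 to 8 in capitals.
mmu-miR-294-3p: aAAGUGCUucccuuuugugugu
mmu-miR-302b-3p: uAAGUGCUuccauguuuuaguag
A site was AGCACTT, which pairs with bases 2 to 8, or GCACTTA, which pairs with bases 2 to 7 followed by an A. Of the 20 cytosolic genes 1 had a site (5.0%, Cars), and of the 16 mitochondrial genes 5 had one (31.2%, Aars2, Hars2, Iars2, Mars2 and Wars2), against 19.2% of 11763 protein-coding genes tested. The 3′ UTRs were short, with medians of 265.5 bases for cytosolic and 558.5 bases for mitochondrial genes against 998.0 bases for all. Mars2 stood apart with an annotated 3′ UTR of 9470 bases that held 2 copies of AGCACTTA, in which both forms of the site combine, and 2 further copies of GCACTTA. Of the protein-coding genes tested, 0.145% held 2 or more copies of AGCACTTA. The 2 combined sites and the site of Cars are shown with the match in capitals.
Mars2 (3′ UTR position 2270): ttagtggtggAGCACTTAccgagcatgg
Mars2 (3′ UTR position 7381): tatactagtcAGCACTTAgctttttaca
Cars (3′ UTR position 186): ctgccctctcAGCACTTggagagctga
Mars2 and Cars were both called for a higher translation level in KO, and both were lower in the KO monosome. The other 4 genes with a site had changes in translation level of 0.25 for Aars2, -0.93 for Hars2, 0.27 for Iars2 and -0.03 for Wars2, of which that of Hars2 passed the adjusted p. The members with a site therefore did not share a direction. Qars, Vars, Vars2 and Lars2 had no such site. Whether the sites are in use was not measured.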

How the data were processed

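Polysome fractions of WT and Dgcr8 KO ESCs were sequenced with QuantSeq 3′ FWD, which reads the 3′ ends of messages. The authors trimmed reads with Cutadapt 1.14, aligned them with STAR 2.5.3a to mm10 and deposited gene counts of unique reads made with featureCounts 1.5.3, strand-specific, on GENCODE M14. The deposited table also gives gene length (not used). Total counts ranged from 1151649 to 4984833 a library, and low counts limit precision. The 92 spike-in entries were left out.

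The filter kept genes that reached 3 CPM in 3 or more libraries. Counts were fitted with limma 3.58.1 (voom, TMM factors from edgeR 4.0.16), with 1 mean for each of the 6 groups, in R 4.3.3. P-values were two-sided and Benjamini-Hochberg adjusted over the 12851 genes. Calls needed both an adjusted p below 0.05 and a log2 change beyond 1 in size. Gradient ratios used log2 CPM with a prior count of 2. The fit was tested on simulated data. Groups came from the sample labels, 0 count columns lacked a sample, and separate cultures for the gradients are not stated, so p-values measure the spread between gradients. Fractions of the same number come from the same gradient per the labels. Across gradients, deviations from group means correlated at 0.032 to 0.135 within a gradient. Between WT and KO of the same number they correlated at 0.00018 to 0.102. The ranges overlap, so these values cannot decide whether equal numbers pair the genotypes. Alternatives were edgeR and DESeq2 1.42.0, other scalings and filters, the adjusted p alone, a replicate block, and leaving out each gradient.

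Members and gene lists were chosen with earlier results of these data known. Genes named in full were the 6 cytosolic and 4 mitochondrial members with the largest mean change over fractions (first those called in 2 or more fractions in 1 direction) and those called for translation level. Mars1 was matched by its older symbol, Mars. Coordinates, CDS and 3′ UTRs came from GENCODE M21, and promoters and microRNAs from RefSeq (GRCm38.p6). One promoter sequence is not reported here.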

Additional observations from a re-analysis of the deposited data

Results flagged for a closer look

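In 6 synthetase genes the genotypes differed in the ratio of high polysome to monosome, by the test of genotype and fraction together (limma, adjusted over all genes tested). The change was 1.87 for Qars, 1.6 for Mars2, 1.23 for Vars, 1.19 for Vars2, 1.14 for Lars2 and 1.07 for Cars on the log2 scale. Relative to the median of their CDS length decile, Qars and Mars2 stood at 1.54 and 1.39. On that footing Vars, Vars2, Lars2 and Cars stood at 0.615, 0.697, 0.643 and 0.573, which is under 2-fold. The 3 KO gradients lay above the 3 WT gradients in each of the 6, where this held for 20.3% of all genes. The 6 were chosen by a test of these same gradients, so the separation is not further evidence. With total count scaling, which moved the median of all genes by -0.33, the changes of Vars, Vars2 and Cars were 0.91, 0.86 and 0.74, under the fold threshold with adjusted p under 0.05, and that of Lars2 was 0.81, which passed neither the fold nor the adjusted p (limma, 0.0815).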

How the results depend on the processing

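Low reads limited the mitochondrial genes most, with as few as 6 in Wars2, 10 in Nars2, 11 in Aars2 and 14 in Mars2. With the adjusted p alone, calls of cytosolic and mitochondrial genes were 16 and 3 in the monosome, 13 and 5 in the low polysome, 11 and 6 in the high polysome, 10 and 5 for change in translation level, 13 and 6 for translation level in WT and 20 and 9 in KO, and 8 of all members for the high to low polysome ratio. With total counts they were 1 cytosolic gene for change in translation level, 5 cytosolic and 2 mitochondrial genes for translation level in KO, and 0 members for the high to low polysome ratio. EdgeR called 2 mitochondrial genes in the low polysome. For the low polysome to monosome ratio 1 member was called by edgeR, DESeq2, DESeq2 size factors, total counts, no filter, the stricter filter (10 CPM) and the replicate block, since Vars2 sat on the threshold. The replicate block (gradient within genotype, or number between genotypes) changed no other count by over 1.5 times. Leaving out 1 gradient gave 8 to 9 cytosolic and 0 to 2 mitochondrial calls in the monosome, 4 to 6 and 0 to 2 in the low polysome, 3 and 0 to 1 in the high polysome, 2 to 3 and 2 to 4 for change in translation level, 4 and 0 to 2 for translation level in WT, 8 to 11 and 4 to 6 in KO, 1 to 2 for the low polysome to monosome ratio and 1 to 2 for the high to low ratio. Among the genes named by rule, signs turned in 5 values that passed no test: the change in translation level of Nars (-0.0999, total counts) and Yars (-0.206, total counts, and -0.00848 to 0.279 leaving out 1 gradient), the low polysome change of Qars (-0.0113 with DESeq2, -0.0134 with DESeq2 size factors, -0.0106 with total counts, -0.0379 with the stricter filter, and -0.0621 to 0.123 leaving out 1 gradient), and the high polysome changes of Vars (-0.0947, total counts, and -0.00066 to 0.306 leaving out 1 gradient) and Lars2 (-0.0499, total counts, and -0.0667 to 0.49 leaving out 1 gradient). The cause was not tested.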

Other observations

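Genes that work next to the synthetases in charging were also listed, and 21 of 22 were tested. By the adjusted p, 9 were lower and 2 higher in the monosome (19.9% and 17.5% of all genes), 9 and 3 in the low polysome (26.2% and 26.1%), and 10 and 2 in the high polysome (31.6% and 29.1%). Their translation level went both ways in KO, with 7 higher and 6 lower by the adjusted p (13% and 15.2% of all genes). With the fold threshold 5 were called higher and 5 lower, and Eef1e1 was among the lower at -1.12 ± 0.30. No gene of this list was set beside the median of its CDS length decile. The following were named after their values were seen. The elongation factor genes Eef1a1, whose product carries charged tRNA to the ribosome, and Eef1b2, Eef1d and Eef1g, for subunits of its exchange factor, were lower in the KO monosome at -1.39 ± 0.15, -1.69 ± 0.11, -1.56 ± 0.14 and -1.70 ± 0.13 on the log2 scale (SE). In the high polysome Eef1a1, Eef1b2 and Eef1g had changes of 0.24, 0.10 and 0.06 that did not pass, and their translation level rose by 1.62 ± 0.22, 1.79 ± 0.15 and 1.75 ± 0.19. Like Qars these 3 were lower in the high polysome than in the monosome of WT, at -2.23, -2.46 and -2.09, but unlike Qars they stayed below 0 in KO, at -0.61, -0.67 and -0.34. Eef1d was lower in the high polysome too, at -0.33 ± 0.13, and its translation level was above 0 in both genotypes, at 0.51 in WT and 1.75 in KO.

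Both genes that turn serine-charged tRNA into selenocysteine-charged tRNA were measured, and they moved apart. Pstk was lower in all 3 fractions, at -1.36 ± 0.23, -2.09 ± 0.22 and -2.37 ± 0.26, while Sepsecs was higher in the monosome and low polysome at 1.63 ± 0.28 and 0.68 ± 0.17 and had a change of 0.30 in the high polysome. Of the subunits that make glutamine-charged tRNA in mitochondria, Gatb was higher in the high polysome at 0.93 ± 0.22 and Gatc, with as few as 3 reads in a library, was lower at -1.49 ± 0.45. Qrsl1 had a change of -0.18 ± 0.17 there and was lower in the monosome at -0.93 ± 0.22.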
